A study of Mus musculus with 4 samples.

Results

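The genes described here encode 58 proteins that choose and cut splice sites: 11 SR proteins, 2 TRA2 proteins, 20 heterogeneous nuclear ribonucleoproteins (hnRNPs), 9 subunits of splicing factor 3 (SF3), 3 U2AF proteins and 13 PRPF proteins. They were chosen by gene name alone, among 48431 genes in the deposited table, and 59 rows matched. U2af1l4 was listed 2 times, and its row with the higher mean was used. RNA came from dorsal root ganglia, which house the somata of sensory neurons next to the spinal cord. The donors were male mice with the strain label SW and the genotype label WT. All of them had received methylglyoxal (MGO), a reactive by-product of glycolysis, intraperitoneally at 2 mg/kg over 6 days. The 4 libraries form 1 group and no untreated group was analysed here, so no value below measures a response to MGO. Whether each library stands for a separate animal, a pool or a repeat is not stated in the labels, and p-values therefore measure the spread between libraries, which may be technical.

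Splicing removes introns from pre-mRNA. SR proteins bind exons through RNA recognition motifs and recruit the machinery through a domain rich in arginine and serine, whereas hnRNPs coat nascent RNA and often act as repressors of nearby splice sites. U2AF and SF3 recognise the end of the intron and its branch point, and the PRPF proteins, named after yeast pre-mRNA processing genes, act at several steps of the spliceosome. Neurons use alternative splicing widely, including in the ion channel genes of sensory neurons.

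Values are CPM, reads scaled to a common total in each library, with no scaling by gene length. The libraries were made with a kit that reads the 3′ ends of transcripts, so CPM was taken as the level of a gene, and an order between genes was also checked on CPM per kb of exonic length. The smallest regular step of the values, if it is 1 read, puts the depths of replicates 1 to 4 at 10138766, 8975726, 5576834 and 7223765 reads. A total of 3 such reads equals 0.296, 0.334, 0.538 and 0.415 CPM in that order, a floor for counting error only. Markers of neurons (6 of 6 genes above 0 in every library) summed to 1.16%, 1.19%, 1.15% and 1.002% of reads. Markers of myelinating Schwann cells (4 of 4) held 2.85%, 2.75%, 1.54% and 1.496%, and those of satellite glia (4 of 4) 0.114%, 0.112%, 0.0538% and 0.0484%. Macrophage markers held 0.0170%, 0.0213%, 0.01198% and 0.0122%, and 1 of the 3, Cd68, was listed at 0 in replicates 3 and 4. In such whole tissue, fewer cells of a type and less RNA per cell cannot be told apart.

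Replicates 1 and 2 stood apart from replicates 3 and 4. Pearson's r of log2(CPM + 1) across genes was 0.990 and 0.980 inside these library pairs and 0.876 to 0.884 between them. Entries of the 18S ribosomal RNA locus were all listed at 0 in the first pair, whereas their shares were 8.26% and 10.8% in the second. The nuclear noncoding RNAs Malat1, Meg3 and Neat1 together held 2.82% and 2.57% against 7.75% and 8.62%. Malat1 and Meg3 were higher in the second pair, whereas Neat1 had 1775, 1933, 1667 and 1820 CPM, with overlapping pairs. The library pairs are no groups of the study and their origin is not known, so differences between them are given as values with no test.

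As a set, the 58 genes stood high. Their median level was 92.2 CPM, against 14.3 CPM for the 14811 genes that averaged 1 CPM or more, and together they held 1.06%, 1.09%, 0.844% and 0.845% of reads. Each gene was set against the median gene of its own library with limma, fitted across all 14811 genes with Benjamini-Hochberg adjustment (call at an adjusted p of 0.05). Of the 58 members, 50 were called above the median gene, where 39.9% of all genes were, and 4 below it, where 39.6% of all genes were. The 4 below were Srsf12, U2af1l4, Srsf4 and Sf3a2, and the 4 with no call were Prpf3, Prpf38a, Sf3b4 and Sf3b5. Scaled per kb, the calls of Prpf4, Prpf8, Prpf31, Prpf39, Sf3b3, Sf3a2 and Hnrnpr were lost, Srsf12 fell under the filter, Sf3b4 was called above and Prpf3 below. Without the filter on low values the median gene is lower: Srsf4 and U2af1l4 were then not called, and Sf3a2 and the 4 with no call were above, 55 in all. The range was wide, from Srsf12 at 1.03 CPM to Hnrnpk at 2037 CPM, a ratio of 1973 between mean CPM values.

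**Figure D1:**
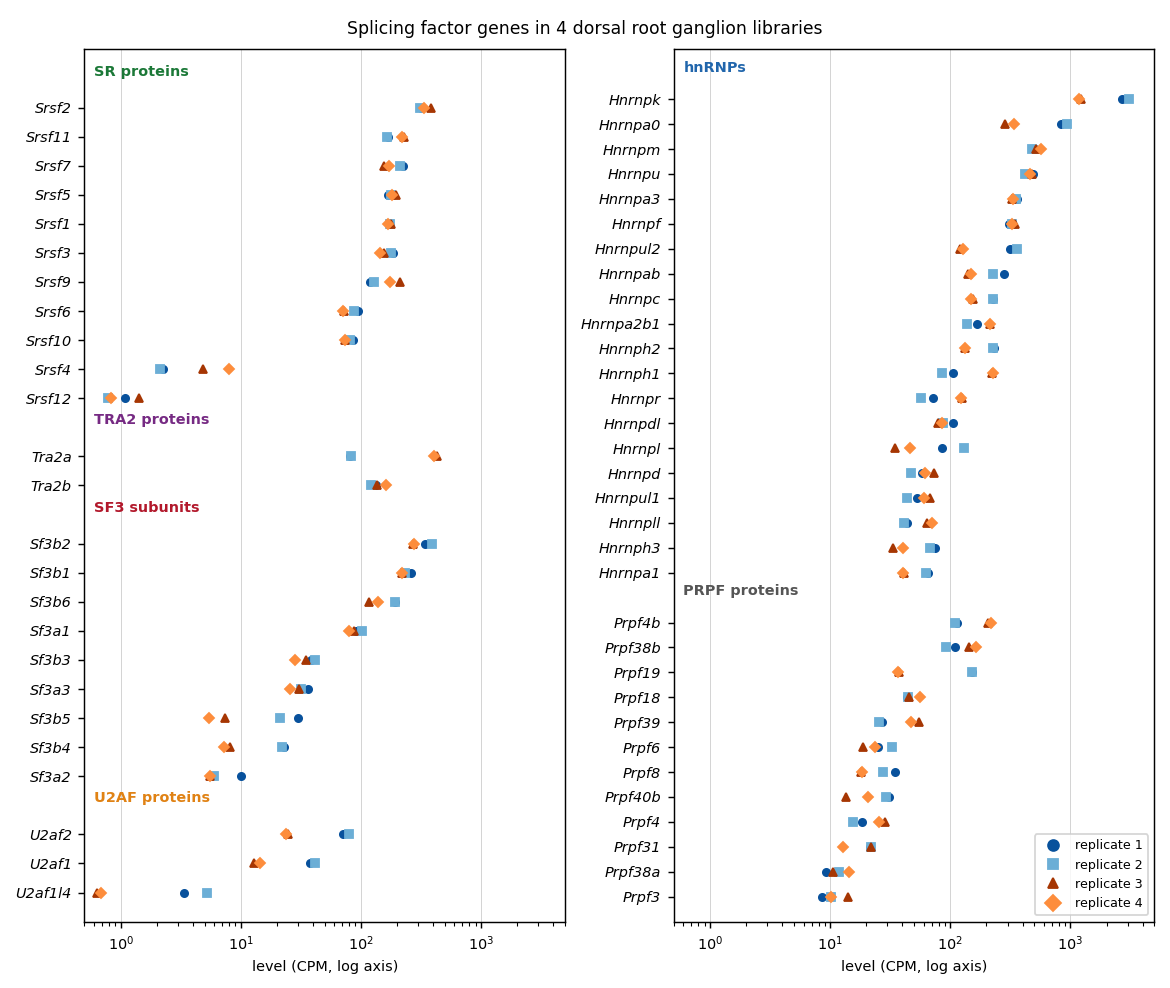
Level of 57 of the 58 genes in CPM (log axis) in replicates 1 to 4, grouped by class and ordered by mean; each symbol is 1 library. Srsf4 and Srsf12 lie far below the other SR proteins, and Hnrnpk lies above 1180 CPM in every library.

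Most SR proteins lay well above the median gene, with 2 exceptions. Of the 11, 9 had means between 78.9 and 337 CPM and were called above the median gene, where 39.9% of all genes were. Per kb, rescaled to the same total, these 9 spread more widely, from 31.2 for Srsf10 to 316 for Srsf2. Srsf2, an SR protein that stays in the nucleus, was the highest, at 319, 312, 385 and 334 CPM in replicates 1 to 4, a log2 difference of 4.55 over the median gene (SE 0.16, limma adjusted p = 7.66e-06). It was the highest SR protein per kb as well. Its exons overlap 288 bases of Mfsd11 and 460 bases of Mettl23 on the opposite strand, and since the use of strand is not given in the sources used here, reads of these genes could be mixed.

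Srsf11 followed with 167, 166, 230 and 218 CPM, and Srsf7, which carries a zinc knuckle, with 223, 212, 155 and 173 CPM. Srsf11 was the higher of them in replicates 3 and 4 and the lower in replicates 1 and 2. Srsf5 had 167, 179, 197 and 183 CPM. Srsf1, the founding member of the family, had 173, 174, 177 and 169 CPM, and its library pairs overlapped. With an SD of 0.03 on the log2(CPM + 1) scale, it was the steadiest of the 54 members with a mean of at least 10 CPM, whose median SD was 0.33, against 0.41 over the 8580 genes at that level.

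Srsf3, the shortest member of the family and an RNA export adaptor, had 184, 177, 157 and 145 CPM. Srsf9, a close relative of Srsf1, had 118, 128, 212 and 175 CPM, lower in replicates 1 and 2 without overlap. Srsf6 and Srsf10, a splicing repressor in its dephosphorylated form, were lower, at 71.02 to 94.98 and 73.7 to 85.5 CPM. Of these 9 genes, 0 reached a 2-fold difference between the library pairs. Over all 8580 genes averaging 10 CPM or more, 23.7% did so without overlap towards replicates 1 and 2 and 9.56% towards replicates 3 and 4.

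Srsf4 and Srsf12 were the exceptions. Srsf4 had 2.27, 2.12, 4.84 and 8.03 CPM, which equals 23, 19, 27 and 58 reads, and lay below the median gene (log2 difference -1.59, SE 0.35, limma adjusted p = 0.00657). It shares 1532 exonic bases with the noncoding gene Gm12992 on the opposite strand, which was listed at 21.01, 23.1, 14.3 and 17.996 CPM, so the level of Srsf4 is uncertain. Srsf12 had the lowest mean of all 58 members, with 1.08, 0.780, 1.43 and 0.831 CPM, equal to 11, 7, 8 and 6 reads (log2 difference -2.84, SE 0.20, limma adjusted p = 6.57e-05). Summed over the class, SR protein genes had 1534, 1520, 1666 and 1551 CPM, a mean of 1568 ± 66.7 (SD, n = 4).

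Tra2a and Tra2b encode transformer 2 proteins, which resemble SR proteins and bind exonic enhancers. Tra2b was steady, at 133, 122, 135 and 162 CPM. Tra2a was not: it had 81.7 and 82.9 CPM in the first library pair and 431 and 408 CPM in the second. The values lay close together inside each pair and did not overlap between pairs, with a 5.10-fold ratio of their mean CPM, the largest ratio among the 54 members with a mean of at least 10 CPM. Tra2b has 4 pseudogene copies with at least 95% identity over at least 200 bases, all listed at 0 CPM, and Tra2a has 0. How reads with several matches were treated is not given in the sources used here, so reads of Tra2b may be missing. As listed, Tra2b was the higher gene in replicates 1 and 2 and Tra2a in replicates 3 and 4, in CPM and per kb.

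The promoter windows of these genes and of 2 others that matter below are shown because the members differ in how their levels compare between the library pairs: Tra2a is the member that was higher in replicates 3 and 4 by the largest ratio, Prpf19 the one that was lower there by the largest ratio at that level, and Hnrnpk the highest of all. Each holds 300 bases around a gene start in RefSeq (GRCm38.p6), most of them upstream, written 5′ to 3′ on the gene's strand. Capitals mark the CRE core TGACG or its reverse complement CGTCA, and the CCAAT box or its reverse complement ATTGG. Prpf19 has 2 windows in the table, and the one nearer to its annotated start is shown. The RefSeq window of Hnrnpk lies inside the longer GENCODE gene, whose annotated start is further upstream. The windows lie at chr6:49264003-49264302 (minus strand), chr16:22265956-22266255 (minus strand), chr13:58402068-58402367 (minus strand) and chr19:10894981-10895280 (plus strand).
Tra2a: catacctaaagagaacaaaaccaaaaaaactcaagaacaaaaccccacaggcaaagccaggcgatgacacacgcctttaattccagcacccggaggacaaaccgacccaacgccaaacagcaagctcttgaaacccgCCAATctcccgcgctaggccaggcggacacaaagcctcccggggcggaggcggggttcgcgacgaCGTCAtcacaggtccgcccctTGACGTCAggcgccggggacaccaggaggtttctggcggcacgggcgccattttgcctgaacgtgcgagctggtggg
Tra2b: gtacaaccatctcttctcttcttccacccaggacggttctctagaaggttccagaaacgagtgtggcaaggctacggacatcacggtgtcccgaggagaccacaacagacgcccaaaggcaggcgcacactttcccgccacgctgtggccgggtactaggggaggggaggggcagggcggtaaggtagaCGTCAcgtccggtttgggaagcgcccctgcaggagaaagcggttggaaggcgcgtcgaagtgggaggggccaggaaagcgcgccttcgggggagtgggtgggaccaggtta
Hnrnpk: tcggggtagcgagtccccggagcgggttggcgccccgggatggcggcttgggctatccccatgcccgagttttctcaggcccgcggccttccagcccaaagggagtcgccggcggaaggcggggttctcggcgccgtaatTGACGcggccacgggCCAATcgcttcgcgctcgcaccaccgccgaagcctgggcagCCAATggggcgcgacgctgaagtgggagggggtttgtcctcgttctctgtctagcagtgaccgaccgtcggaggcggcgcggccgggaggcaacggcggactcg
Prpf19: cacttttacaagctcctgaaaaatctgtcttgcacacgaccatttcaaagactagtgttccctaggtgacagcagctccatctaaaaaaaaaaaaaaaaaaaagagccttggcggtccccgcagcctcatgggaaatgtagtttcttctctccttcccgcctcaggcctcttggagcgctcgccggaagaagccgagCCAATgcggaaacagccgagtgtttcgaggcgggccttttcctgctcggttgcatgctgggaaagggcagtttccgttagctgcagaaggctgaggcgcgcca

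The Tra2a window holds the full palindrome TGACGTCA, which contains the core on both strands, 1 further CGTCA and 1 CCAAT box. The Tra2b window holds 1 core and no CCAAT box. The Hnrnpk window holds 1 core and 2 CCAAT boxes, and the Prpf19 window 1 CCAAT box and no core. Of the members, 51 matched the RefSeq promoter table by symbol, with 68 windows. The full palindrome was in 1.47% of the member windows and 1.79% of all 32851 windows. The core was in 51.5% against 20.8%, the CCAAT box in 51.5% against 37.4%, the GC box GGGCGG in 70.6% against 35.7%, the ETS site CCGGAAG in 30.9% against 8.86% and TATAAA in 7.35% against 13.6%, each counted on both strands. The member windows were richer in G and C, with a median of 61.3% against 52.7%. The part of base composition in these shares was not tested.

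All 20 hnRNP genes were called above the median gene, where 39.9% of all genes were. Hnrnpk (chromosome 13, 58391142 to 58403343, GRCm38), whose protein binds stretches of cytosine, was the highest of the 58 members, at 2674, 3068, 1220 and 1186 CPM (log2 difference 7.01 over the median gene, SE 0.24, limma adjusted p = 7.60e-06). It was higher in replicates 1 and 2 by a ratio of 2.39 without overlap, yet remained first among hnRNPs in every library and per kb. It alone held 37.9%, 41.6%, 26.1% and 24.97% of the hnRNP sum. Hnrnpa0, an intronless hnRNP gene whose protein binds AU-rich elements, came next by mean, with 830, 945, 284 and 341 CPM, a ratio of 2.84 in the same direction.

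Several abundant hnRNPs hardly differed between libraries. Hnrnpm had 511, 478, 515 and 569 CPM. It shares 1169 exonic bases with March2 on the same strand, listed at 35.2 to 51.3 CPM. Hnrnpu, which encodes a nuclear scaffold protein, had 485, 418, 474 and 459 CPM, with overlapping library pairs. It shares 804 exonic bases with Cox20 on the opposite strand, listed at 77.7 to 120 CPM. Hnrnpa3, a relative of Hnrnpa1 and Hnrnpa2b1, had 362, 351, 325 and 335 CPM, and Hnrnpf, which binds runs of guanine, 306, 329, 345 and 328 CPM. Hnrnpa3 and Hnrnpf had the smallest SDs after Srsf1, at 0.07 each on the log2 scale. In replicates 3 and 4 the levels of Hnrnpm and Hnrnpu exceeded that of Hnrnpa0, and in replicates 1 and 2 they fell short of it, on the CPM scale.

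Hnrnpul2 had 315, 357, 120 and 129 CPM, Hnrnpab 278, 226, 141 and 150 CPM, and Hnrnpc, whose protein packages nascent RNA, 229, 228, 153 and 150 CPM. All of them were lower in replicates 3 and 4 without overlap, Hnrnpul2 by a ratio of 2.70. Hnrnph2, on the X chromosome, was lower there too, at 231, 226, 133 and 133 CPM. Hnrnpl, which binds CA repeats, had 85.1, 129, 34.6 and 46.4 CPM, a ratio of 2.64. Hnrnph3 had 75.2, 67.8, 33.5 and 40.1 CPM, and shares 115 exonic bases with Rufy2 on the opposite strand, which was listed higher, at 135 to 265 CPM.

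Hnrnph1, which like Hnrnpf binds runs of guanine, went the other way, with 105 and 84.7 CPM in the first library pair and 223 and 226 CPM in the second, a ratio of 2.37. Hnrnpa2b1, an RNA transport and splicing factor, had 166, 138, 215 and 215 CPM, and Hnrnpr, known from axons of motor neurons, 72.4, 56.7, 125 and 123 CPM. Hnrnpll had 43.5, 41.1, 64.2 and 71.02 CPM. Hnrnpd (AUF1), a factor of mRNA decay, had 58.5, 46.8, 73.9 and 61.05 CPM and Hnrnpul1 53.3, 44.01, 67.96 and 60.8 CPM, both higher in replicates 3 and 4 without overlap. Hnrnpdl had 104, 86.6, 78.9 and 85.4 CPM.

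The lowest mean in the class belonged to Hnrnpa1, a repressor of many exons, with 65.6, 62.5, 41.4 and 40.4 CPM. Per kb of exonic length it ranked 15 of 20, and Hnrnpr was last. Hnrnpa1 has 9 other annotated genes with at least 95% identity over at least 200 bases, all pseudogenes. The 7 of them in the table summed to at most 0.277 CPM in a library. How reads with several matches were treated is not given in the sources used here, so reads shared with these copies may be missing and the level is uncertain. Hnrnpa3 has 28 such copies, whose 26 entries in the table summed to at most 3.05 CPM in a library. Hnrnpf has 8, whose 6 entries summed to at most 0.717 CPM. Besides Tra2b, such copies were found for Srsf3 (4), U2af1 (3), Hnrnpk and Srsf10 (2 each). They were also found, 1 each, for Srsf5, Hnrnpc, Hnrnph2, Hnrnpr, Hnrnpul2, Prpf19, Sf3b2, Sf3b4 and U2af2. Reads of all these genes may be missing as well.

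As a class, hnRNP genes summed to 7049, 7383, 4668 and 4749 CPM, a mean of 5962 ± 1454 (SD, n = 4), and the pairs did not overlap. Without Hnrnpk the sums were 4375, 4315, 3448 and 3563 CPM, in the same order of the pairs. Gene by gene, the class showed no such shift. The median log2 difference (replicates 3 and 4 minus 1 and 2) was -0.16 for the 20 hnRNP genes. It was -0.19 for all genes averaging 10 CPM or more, with 10 hnRNP genes above that value and 10 below it.

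**Figure D2:**
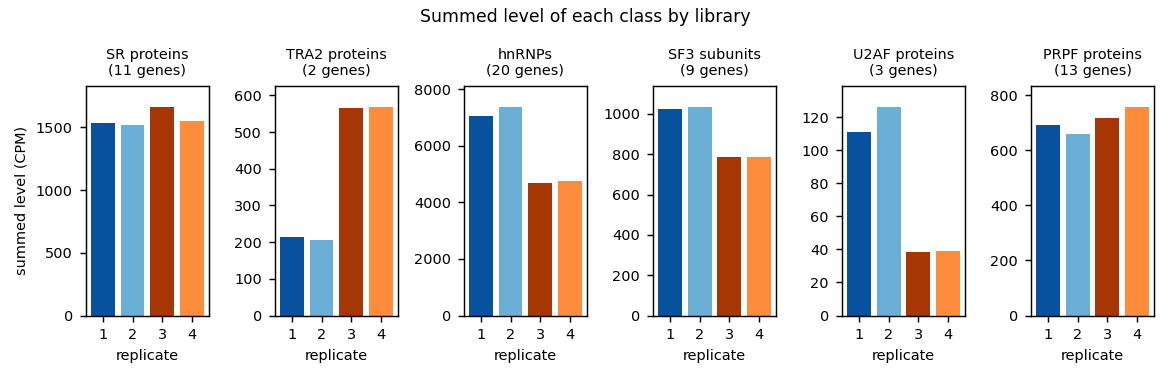
Summed level of each class in CPM (bars, linear axes that start at 0, 1 bar per library). The SR and PRPF sums stay between 1520 and 1666 and between 658 and 758 CPM, whereas hnRNP, SF3 and U2AF sums are lower and the TRA2 sum is higher in replicates 3 and 4.

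The factors that recognise the end of the intron were lower in replicates 3 and 4. U2af2, which encodes the large U2AF subunit that binds the polypyrimidine tract, had 70.4, 80.1, 24.7 and 23.9 CPM. U2af1, the gene of the small subunit that reads the AG at the end of the intron, had 37.6, 41.1, 12.9 and 14.4 CPM. The ratios were 3.09 and 2.88, and neither gene overlapped between the pairs. U2af2 exceeded U2af1 in every library, with a within-library log2 difference of U2af1 over U2af2 of -0.85 ± 0.11 (SD, n = 4). U2af1l4, a relative of U2af1, had 3.34, 5.24, 0.641 and 0.692 CPM. In replicates 3 and 4 it stood for 3.6 and 5 reads, close to the floor of 3. A second row of the same symbol shares 1086 exonic bases on the same strand and was listed at 0.815, 0, 0.915 and 0 CPM, and Psenen overlaps 119 bases on the opposite strand, so the level is uncertain.

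Subunits of SF3, which anchors the U2 small nuclear ribonucleoprotein (snRNP) at the branch point, ranged from 6.77 to 319 CPM by mean. Sf3b2 had 340, 388, 273 and 275 CPM. Sf3b1, the scaffold that clasps the branch point helix and is recurrently mutated in human blood cancers, had 262, 231, 222 and 222 CPM. Sf3b6, which contacts the branch point adenosine, had 192, 193, 117 and 139 CPM and was the highest subunit gene per kb. Sf3a1 had 91.8, 102, 87.3 and 79.7 CPM, Sf3b3 38.2, 41.8, 35.1 and 28.1 CPM, and Sf3a3 36.5, 31.6, 30.3 and 25.9 CPM. Sf3b3 shares 188 exonic bases with Cog4 on the opposite strand, listed at 26.6 to 47.7 CPM, so reads of these genes could be mixed.

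Sf3b4 and Sf3b5, small subunits of SF3B, differed most between the library pairs. Sf3b4 had 22.8, 22.1, 8.07 and 7.20 CPM, and Sf3b5 29.7, 21.3, 7.35 and 5.399 CPM, ratios of 2.94 and 3.997 without overlap. Each was above the median gene in replicates 1 and 2 and below it in replicates 3 and 4, and neither was called, although both were called above without the filter on low values and Sf3b4 also per kb. In replicates 3 and 4 they rest on 39 to 52 reads. Sf3a2 had the lowest mean of the subunit genes, with 9.96, 6.02, 5.56 and 5.54 CPM (log2 difference -0.93, SE 0.18, limma adjusted p = 0.00351), and replicate 1 stood apart from the other libraries. It shares 429 exonic bases with Plekhj1 on the opposite strand, listed at 22.3 to 33.98 CPM. All 8 subunit genes averaging 10 CPM or more were higher in replicates 1 and 2 without overlap, where 50.4% of all genes at that level were. Set against the median difference of all genes, -0.19 on the log2 scale, 7 of the 8 were lower in replicates 3 and 4 and Sf3b1 was higher. The distance from that median was small for Sf3a1 (-0.02), Sf3b1 (0.04) and Sf3a3 (-0.08). It was largest for Sf3b5 (-1.64) and Sf3b4 (-1.25). The SF3 sum was 1023, 1036, 786 and 787 CPM.

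PRPF genes span several steps of the spliceosome. Prpf4b, which encodes a kinase of the spliceosome, had the highest mean, with 114, 110, 207 and 218 CPM. Prpf38b had 109, 91.8, 143 and 165 CPM, and Prpf38a, a protein of the complex before activation, 9.17, 11.9, 10.6 and 14.3 CPM. Prpf40b, a relative of a yeast U1 snRNP protein, had 31.1, 29.2, 13.6 and 20.6 CPM, and Prpf39, a U1-associated factor, 27.2, 25.5, 55.2 and 47.2 CPM. Prpf39 was the higher in replicates 3 and 4 and Prpf40b in replicates 1 and 2, each without overlap.

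The PRPF genes of the tri-snRNP, the particle of U4, U6 and U5 that brings the catalytic RNA, had means of 10.8 to 24.9 CPM. Prpf8, the scaffold of the active site, had 34.9, 27.5, 17.9 and 18.3 CPM, and Prpf6, which bridges the particle, 24.9, 32.4, 18.6 and 23.8 CPM. Prpf4 had 18.3, 15.5, 28.5 and 25.7 CPM and its partner Prpf3 8.58, 10.1, 14.2 and 10.2 CPM. Prpf31 had 21.5, 22.1, 21.9 and 12.7 CPM. Mutations in the human counterparts of these genes cause retinitis pigmentosa. Prpf8, Prpf6, Prpf4 and Prpf31 were called above the median gene, Prpf4 and Prpf31 narrowly (limma adjusted p = 0.0477 and 0.0435). On library pair means Prpf8, Prpf6, Prpf4, Prpf31, Prpf40b, U2af1 and Sf3a2 lost their calls. The calls of Prpf4 and Prpf31 were also lost when single libraries were left out, as were those of U2af1 (limma adjusted p = 0.0483) and Prpf40b (limma adjusted p = 0.0169). Prpf39 shares 599 exonic bases with Fkbp3 on the opposite strand, listed at 62.1 to 71.4 CPM.

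Prpf19, the ubiquitin ligase that gives its name to the complex for spliceosome activation, was the PRPF gene that differed most between the library pairs. It had 152, 151, 37.1 and 36.8 CPM, a ratio of 4.10, and the libraries within each pair differed by under 2 CPM. Prpf18, a factor of the final step, had 43.6, 44.2, 45.01 and 56.1 CPM. Summed, the PRPF genes had 693, 658, 717 and 758 CPM.

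Related members were compared within libraries in 17 comparisons, 16 between relatives and 1 between the U2AF subunits. In 12 of the 17 the same gene was the higher in 4 of 4 libraries, and all 12 kept that direction per kb. With 4 libraries the exact sign-flip test cannot go below p = 0.125 (two-sided), which is the value of each of these 12 before any adjustment for the 17 comparisons. Srsf10 exceeded Srsf12 by a log2 difference of 5.30 ± 0.26 (SD, n = 4), Srsf6 exceeded Srsf4 (log2 difference of Srsf4 over Srsf6 -4.09 ± 0.92), Hnrnpu exceeded Hnrnpul1 (log2 difference 3.02 ± 0.21), and U2af1 exceeded U2af1l4 (log2 difference 3.04 ± 0.20). Hnrnpf was above Hnrnph1, Hnrnpdl above Hnrnpd, Prpf38b above Prpf38a, and Hnrnpul2 above Hnrnpul1. Hnrnpa3, Hnrnpa2b1 and Hnrnpa1 kept this order in every library, with log2 differences of -0.92 ± 0.36 for Hnrnpa2b1 over Hnrnpa3 and -1.80 ± 0.66 for Hnrnpa1 over Hnrnpa2b1.

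In 4 pairs the order turned between the library pairs. The log2 difference of Tra2a over Tra2b was -0.69, -0.55, 1.67 and 1.33 in replicates 1 to 4. That of Hnrnph1 over Hnrnph2 was -1.13, -1.40, 0.74 and 0.76. Hnrnpl lay above Hnrnpll in replicates 1 and 2 (0.95 and 1.63) and below it in replicates 3 and 4 (-0.87 and -0.60). Srsf1 and Srsf9 changed places by less, with 0.54 and 0.44 against -0.26 and -0.06. Per kb Hnrnpl stayed above Hnrnpll and Srsf1 below Srsf9 in all 4 libraries, so for them the crossing of 0 depends on the scale. The shift between the library pairs remained: per kb, Hnrnpl over Hnrnpll was 1.85, 2.51, 0.08 and 0.34 in replicates 1 to 4. That of Srsf1 over Srsf9 was -1.23, -1.33, -2.03 and -1.83. For Srsf3 and Srsf7 the difference was small (-0.20 ± 0.14, n = 4, exact sign-flip p = 0.25), and per kb Srsf3 was below Srsf7 in all 4 libraries.

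**Figure D3:**
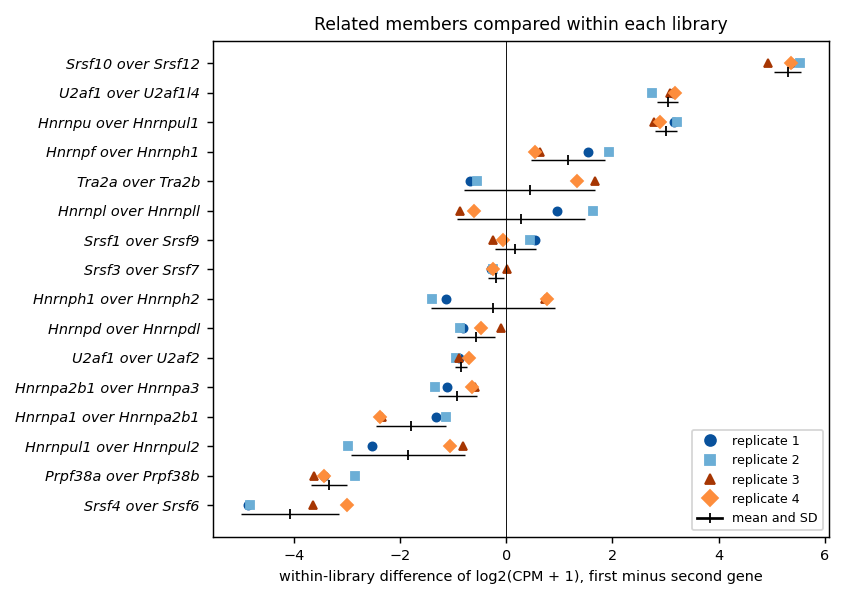
Within-library difference of log2(CPM + 1) for 16 of the 17 comparisons of related members, first gene minus second; symbols are libraries, bars the mean and SD of 4 libraries. Points of Tra2a over Tra2b, Hnrnph1 over Hnrnph2, Hnrnpl over Hnrnpll and Srsf1 over Srsf9 lie on both sides of 0, split by library pair.

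Members differed in both directions between the library pairs. Of the 54 with a mean of at least 10 CPM, 9 were at least 2-fold higher in replicates 1 and 2 without overlap, where 23.7% of all 8580 genes were: Prpf19, Sf3b5, U2af2, Sf3b4, U2af1, Hnrnpa0, Hnrnpul2, Hnrnpl and Hnrnpk. Another 2, Tra2a and Hnrnph1, were higher in replicates 3 and 4, where 9.56% of all genes were. Without the size limit, 29 and 20 members did not overlap, where 50.4% and 34.5% of all genes did not. The members' 2-fold shares were below the background, and their shares without the size limit near it. Just under the limit of 2-fold lay Prpf39, Hnrnpr and Prpf4b, higher in replicates 3 and 4 by ratios of 1.94, 1.92 and 1.90, and Hnrnph3, higher in replicates 1 and 2 by 1.94. The median difference (replicates 3 and 4 minus 1 and 2) was -0.19 on the log2 scale for these members and -0.19 for all genes at that level, so a gene with no difference in CPM sat 0.19 above the typical gene. When the 18S locus and mitochondrial genes were left out of the total, the same 9 genes were at least 2-fold higher in replicates 1 and 2, where 19.0% of all genes were, and Prpf4b, Prpf39 and Hnrnpr joined the 2 genes higher in replicates 3 and 4, where 13.8% were.

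**Figure D4:**
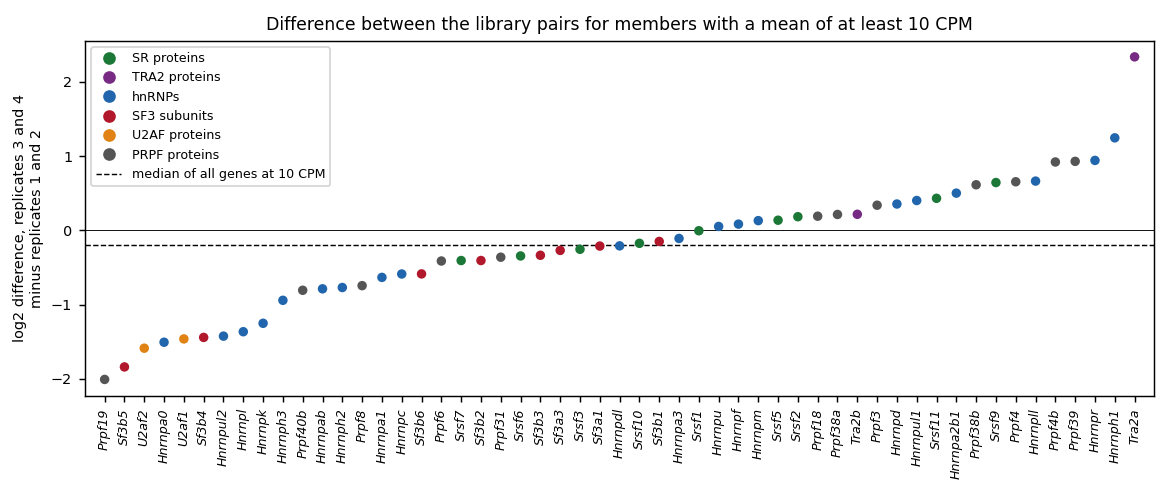
Log2 difference between the library pairs (replicates 3 and 4 minus 1 and 2) for 53 of the 54 members with a mean of at least 10 CPM, coloured by class; the dashed line is the median of all 8580 genes at that level, -0.19. Prpf19 (-2.01) and Tra2a (2.33) are the extremes.

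Transcript features that played no part in choosing the genes were set beside this difference. Across the 54 members, Spearman's rho with exonic length was 0.47 and with the G and C content of the longest coding transcript -0.42; over the 8571 annotated genes at that level it was 0.38 and -0.20. With the length of that transcript it was 0.13 for members and 0.42 for all genes, with the number of annotated transcripts 0.28 and 0.07, and with that of transcripts subject to nonsense-mediated decay 0.28 and 0.04. With the number of retained-intron transcripts it was -0.01 for members and 0.03 for all genes. These are descriptions over genes that share the same 4 libraries. The 9 genes that were higher in replicates 1 and 2 had a median of 54.2% G and C (42.9% to 56.4%). Tra2a and Hnrnph1 had 44.1% and 45.4%. The other 43 members had a median of 44.8%, and their range, 37.0% to 58.3%, contains that of the 9. Annotated isoforms were many: 32 members (55.2%) have a transcript of the class subject to nonsense-mediated decay, against 24.5% of the 14811 genes, among them 9 of the 11 SR genes, a family known to control its own level through such isoforms. A retained-intron transcript is annotated for 43 members (74.1%), against 52.1%. The table gives a single value per gene, so which isoform the reads came from was not measured.

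The rest of the machinery was read from lists of further splicing genes. Over all 14811 genes tested, 39.9% were called above the median gene and 39.6% below it. Of 15 Sm and Lsm genes, which encode the rings around spliceosomal RNAs, 8 were called above the median gene and 1 below, from Lsm4 at 4.37 to Snrpd3 at 168 CPM. Of the 13 that averaged 10 CPM or more, 9 were at least 2-fold higher in replicates 1 and 2 without overlap, where 23.7% of all genes were, and 0 in replicates 3 and 4, where 9.56% were. The 17 snRNP-specific genes in the table had 13 calls above and 3 below, from Ppih at 4.85 to Snrnp70, the U1 protein, at 347 CPM. Of 13 genes of the Prp19 complex and branch point recognition, 10 were called above and 2 below. Among them, named after their values were seen, Plrg1, a core partner of PRP19, had 28.8, 28.4, 7.17 and 6.64 CPM, and Cdc5l, another partner, 76.2, 71.4, 74.4 and 72.8 CPM. Plrg1 was lower in replicates 3 and 4, as Prpf19 was, and Cdc5l was not. Exon junction complex genes had 5 of 7 calls above and 0 below, led by Upf3b at 99.5 CPM.

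All but Srpk3 of the 8 SR protein kinase genes were called above the median gene, where 39.9% of all genes were, led by Srpk2 at 238 CPM. Srpk3 (5.84 CPM) was called below, where 39.6% of all genes were. Of 14 SR-related coactivator genes, 12 were called above and 2 below, with a median level of 169 CPM and the highest in Luc7l3 at 386 CPM. Of the 12 at 10 CPM or more, 5 were at least 2-fold higher in replicates 3 and 4, where 9.56% of all genes were, and 0 in replicates 1 and 2, where 23.7% were. Among 8 spliceosomal RNA helicase genes at that level, 3 were higher in replicates 3 and 4 to this extent. Of 15 neuronal and tissue splicing regulators, 13 were called above and 1, Nova1, below, with Mbnl2 the highest at 1034 CPM and 4 at least 2-fold higher in replicates 3 and 4. The 12 relatives of hnRNPs under other names were led by Tardbp, the gene of TDP-43, at 402 CPM, with 7 calls above among the 11 tested. Ptbp1, the gene of hnRNP I and a repressor of neuronal exons, was the lowest, at 0.690, 1.003, 1.43 and 0.554 CPM. In the lists not yet counted this way, the genes at least 2-fold higher in replicates 1 and 2 and in replicates 3 and 4 numbered 3 and 1 of 14 for snRNP-specific proteins, 3 and 0 of 11 for the Prp19 and branch point list, 2 and 0 of 7 for the exon junction complex, 2 and 1 of 11 for the hnRNP relatives and 0 and 0 of 7 for the kinases. Of the 14 tissue regulators and 8 helicases at that level, 0 were higher in replicates 1 and 2 to this extent. For each of these lists, the shares of all genes at that level were 23.7% in replicates 1 and 2 and 9.56% in replicates 3 and 4.

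**Figure D5:**
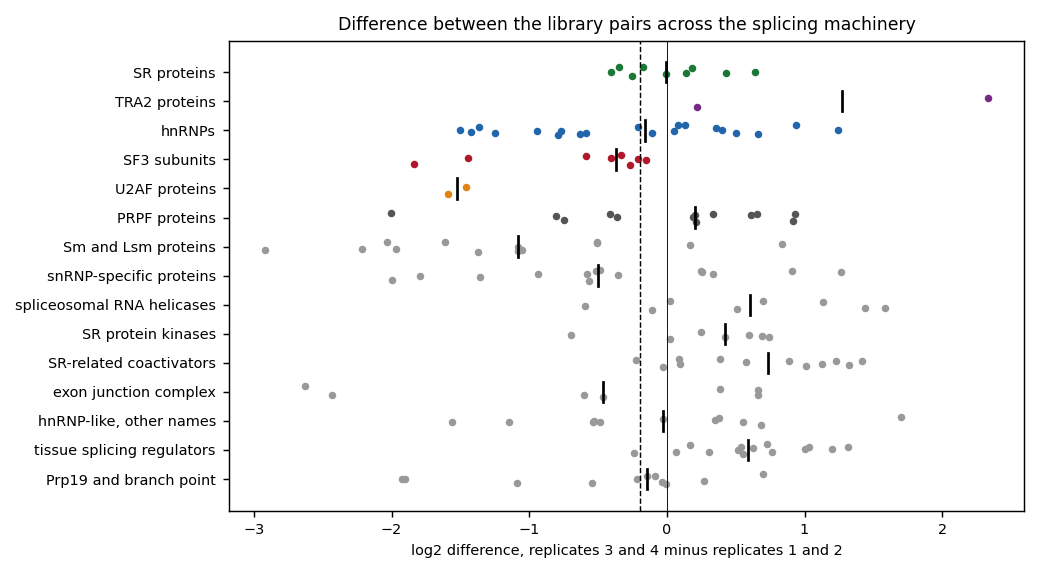
Log2 difference between the library pairs (replicates 3 and 4 minus 1 and 2) for members by class (coloured) and for the 9 further lists (grey), genes averaging 10 CPM or more; black bars are medians and the dashed line is the median of all genes. The medians run from -1.52 for the U2AF genes to 1.28 for the TRA2 genes, each a median of only 2 genes. The TRA2 genes are Tra2a (2.33) and Tra2b (0.22). The Sm and Lsm median is -1.08 against 0.73 for SR-related coactivators.

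In replicates 3 and 4 the shares of nuclear noncoding RNA and of the 18S locus were higher and the summed shares of Schwann cell and satellite glia markers lower, as given above. Mitochondrial genes held 3.13%, 2.44%, 4.90% and 5.04%. The summed markers of fibroblasts held 0.170%, 0.157%, 0.128% and 0.111%, those of blood 0.0774%, 0.0897%, 0.0394% and 0.0389%, and those of skeletal muscle 0.0750%, 0.0739%, 0.0415% and 0.0360%, each with all 3 genes above 0 in every library. Single markers went against their sum: Prph and Uchl1 of neurons, Kcnj10 of satellite glia, Col1a1 of fibroblasts and Hba-a2 of blood were higher in replicates 3 and 4. Prph had 883, 993, 1894 and 1565 CPM, whereas Nefl had 2637, 2412, 1157 and 1185 CPM. The neuron sum therefore holds differences in opposite directions. The part of any of these shares or markers in the differences of splicing genes was not tested.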

How the data were processed

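RNA was measured in 4 dorsal root ganglion libraries. Per the labels' protocols, total RNA was depleted of ribosomal RNA and made into 3′ end libraries with a Lexogen QuantSeq kit. The submitters' processing notes name Cufflinks 2.2.1, Bowtie2 2.2.9, TopHat2 2.1.1 and FastQC 0.11.5, with the builds GRCm38.p4 and mm10 and no roles. The deposited values are called TPM per the file headers but were used as CPM: 98.3% to 98.4% of the values above 0 in a library lay within 0.05 of whole multiples of 1 step, and columns summed to 1000000.

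The 58 genes and all lists were chosen with earlier results of these data known. For a symbol listed more than once, the higher row was used. On log2(CPM + 1), each gene minus the median of its library was tested with limma 3.58.1 (R 4.3.3; intercept only, mean-variance trend, two-sided, Benjamini-Hochberg over the 14811 genes averaging 1 CPM or more). The fit was tested on simulated data. The simulated libraries were independent of each other and did not form pairs, so the simulation cannot show how the fit behaves with library pairs. Members printed in full were the 3 highest and the lowest of each class, all related pairs, those with the largest differences between library pairs and the steadiest; the others complete their class. The values of 1 member and its comparison are not reported here, though counts and sums include them. Gene IDs were matched to GENCODE M21 (GRCm38; 99.2% of IDs), copies were sought with BLAST 2.17.0, and promoters came from RefSeq (GRCm38.p6). Python 3.11.15 with pandas 2.3.3 and scipy 1.17.1 was used. Alternatives were each replicate left out, other scalings, a pseudocount of 0.1, no filter on low values, no trend, scaling by length and the lower row of a repeated symbol; fits on library pair means and with the pair as a term were added after seeing the data.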

Additional observations from a re-analysis of the deposited data

Results flagged for a closer look

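Of 81 sets of 4 values, 4 had a single library far from the other 3 by Dixon's test, which flags about 1 in 20 sets by chance. Prpf31 was at 12.7 CPM in replicate 4 and at 21.5 to 22.1 CPM in the others (gap over range 0.94). Sf3a2 was at 9.96 CPM in replicate 1 and at 5.54 to 6.02 CPM in the others (0.892). Prpf18 was at 56.1 CPM in replicate 4 and at 43.6 to 45.01 CPM in the others (0.887). The log2 difference of Srsf3 over Srsf7 was 0.02 in replicate 3 and -0.28 to -0.26 in the others (0.919).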

How the results depend on the processing

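No paired analysis was possible because all libraries belong to 1 group, so no replicate numbers are shared between groups. With single replicates left out, members called above the library median numbered 46 to 48 (50 with all 4), those below 3 to 4, those at least 2-fold higher in replicates 1 and 2 numbered 9 to 11 and those higher in replicates 3 and 4 numbered 2 to 4 (4 without replicate 1), pairs of constant direction 12 to 13, and summed levels ran from 1535 to 1583 CPM for SR proteins, 5489 to 6393 for hnRNPs, 865 to 949 for SF3 subunits and 690 to 723 for PRPF proteins. The calls lost in this way were those of Prpf31, Prpf40b, U2af1 and Prpf4, and Srsf12 fell under the filter without replicate 3. Without the filter on low values the library median dropped and only 1 member was called below it, with Sf3a2 above (log2 difference 0.86, limma adjusted p = 0.00842). Rescaled without the 18S locus and mitochondrial genes, or with median-ratio scaling, 5 members were higher in replicates 3 and 4; the median difference between library pairs over all genes then went from -0.19 to -0.01 and -0.04, and with the former the SR sum was 1725 CPM and the PRPF sum 779 CPM, which follows from the smaller total. Per kb of exonic length, 45 members were called above and 3 below, and Srsf1 over Srsf9 turned to -1.61. Hnrnph1 over Hnrnph2 ran from -0.60 to 0.12 and Hnrnpl over Hnrnpll from -0.17 to 0.66 when single replicates were left out. On library pair means, which have 1 residual degree of freedom, 44 members were called above and 3 below. Several differences between related members kept their direction but changed in size: Srsf10 over Srsf12 was 4.08 per kb and 6.16 with a pseudocount of 0.1, Hnrnpa1 over Hnrnpa2b1 -0.74, U2af1 over U2af2 -0.21 and Hnrnpd over Hnrnpdl -1.15 per kb, Hnrnpf over Hnrnph1 2.09 and Srsf3 over Srsf7 -1.33 per kb, and U2af1 over U2af1l4 4.15 with the lower of the repeated rows. The other alternatives left the counts within 1.5 times. Depth limits U2af1l4, Srsf12 and Srsf4, which rest on 3.6 to 58 reads in a library, and Sf3a2, Sf3b4 and Sf3b5, which rest on 31 to 52 reads in replicates 3 and 4.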
